A study of Homo sapiens with 6 samples.

Results

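Chromatin around 8 genes of myoblast fusion and the muscle membrane was examined by ATAC-seq in RH30 rhabdomyosarcoma cells with and without MyoD. The genes were MYMK, MYMX, CDH15, CAV3, DYSF, MYOF, DMD and SGCA. An open region was assigned to a gene when its highest summit lay in the gene body or within 50 kb of it. This rule gave 170 of the 105569 open regions of the series, and 91 of the 170 were called in all 6 libraries, the set in which levels were compared. Regions per gene ranged from 14 at MYMX and CAV3 to 43 at DYSF, and 89 of the 170 had the member's own 5′ end as the nearest protein-coding start. The other regions lay closer to the start of a neighbouring gene or far inside a long gene, and no value here ties a region to the gene it regulates.

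Skeletal muscle forms when single myoblasts adhere, merge their membranes and become multinucleated fibres. MYMK encodes myomaker and MYMX encodes myomixer, the muscle-specific membrane proteins that carry out fusion, and CDH15 encodes M-cadherin, a calcium-dependent adhesion molecule of myoblasts. CAV3 encodes caveolin-3, the scaffold of muscle caveolae, DYSF encodes dysferlin, which acts in membrane resealing, and MYOF encodes the related protein myoferlin. DMD encodes dystrophin and SGCA encodes α-sarcoglycan, which link the cytoskeleton to the matrix across the membrane. MyoD is a basic helix-loop-helix factor that binds E boxes, short palindromic or near-palindromic motifs, and drives many muscle genes.

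RH30 is a fusion-positive (alveolar) rhabdomyosarcoma line. The vector group comprised 3 libraries from cells transduced with Cas9 and a non-targeting scramble guide, and the MyoD-deleted group comprised 3 libraries from cells transduced with Cas9 and guides against MyoD. Replicates are labelled biological, but whether they were separate transductions, clones or cultures of 1 edited population is not given in the sources used here, and the sources differ on whether these cells also carried the IκBα super repressor of NF-κB. Each library is a bulk sample, so fewer open cells and less opening per cell cannot be told apart.

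After merging, each library called 115 to 131 of the 170 regions. The number of reads per library is unknown from the peak lists. Depth was gauged by the smallest local background of a library, which was 3.41 fragments in vector replicate 1 and 2.22 to 2.74 in the other 5. All 6 libraries had a peak at most 2 kb from the 5′ end of 8 of 8 muscle and rhabdomyosarcoma markers, MYOD1 among them, and of 2 of 3 neuronal markers, but of none of 4 blood, 3 endothelial and 4 epithelial markers. CDH5, an endothelial marker, had a region in 3 of 3 MyoD-deleted and 0 of 3 vector libraries, KRT8 in 2 and 0, and EPCAM in 3 and 2. Their part in the results was not tested. Peak lists do not show whether MyoD itself was lost.

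The sequence around a summit shows which motifs an open region holds. The windows shown are plus-strand GRCh38 sequence of regions described in the sections that follow, chosen because their heights differed between groups, because they mark a 5′ end or, in the last window, because the region was called in MyoD-deleted libraries only. Capitals mark E boxes, either the palindrome CAGCTG or the form CAGGTG, which reads CACCTG when it lies on the minus strand. They also mark AP-1 sites (TGACTCA or its reverse complement TGAGTCA), AP-1 being the factor of the FOS and JUN family.
MYMK, 5′ end, chr9:133528688-133528822: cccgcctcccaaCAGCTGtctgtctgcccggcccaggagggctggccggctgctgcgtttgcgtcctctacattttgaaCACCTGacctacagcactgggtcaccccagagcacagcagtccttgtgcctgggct
MYMK, intron 1, chr9:133522588-133522701: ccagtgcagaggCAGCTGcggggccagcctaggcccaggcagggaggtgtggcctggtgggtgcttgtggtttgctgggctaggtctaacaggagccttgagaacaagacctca
MYMX, 5′ end, chr6:44216769-44216837: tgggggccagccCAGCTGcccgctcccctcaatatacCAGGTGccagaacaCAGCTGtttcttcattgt
MYMX, upstream, chr6:44200836-44200934: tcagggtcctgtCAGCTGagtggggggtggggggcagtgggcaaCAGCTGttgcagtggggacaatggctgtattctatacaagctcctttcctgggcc
CAV3, 5′ end, chr3:8733661-8733744: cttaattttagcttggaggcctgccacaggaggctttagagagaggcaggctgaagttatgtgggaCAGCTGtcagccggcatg
CAV3, downstream in RAD18, chr3:8856169-8856314: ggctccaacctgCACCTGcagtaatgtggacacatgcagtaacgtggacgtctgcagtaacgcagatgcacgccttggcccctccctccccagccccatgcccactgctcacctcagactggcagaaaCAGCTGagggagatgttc
DMD, intron 1, chrX:33205008-33205215: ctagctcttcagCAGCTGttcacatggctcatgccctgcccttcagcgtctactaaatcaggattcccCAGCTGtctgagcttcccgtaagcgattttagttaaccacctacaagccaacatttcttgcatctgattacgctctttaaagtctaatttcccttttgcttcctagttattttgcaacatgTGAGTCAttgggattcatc
DMD, intron 60, chrX:31353242-31353343: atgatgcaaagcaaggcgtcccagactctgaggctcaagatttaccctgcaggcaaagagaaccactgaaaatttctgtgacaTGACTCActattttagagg
DYSF, gained region, chr2:71458587-71458663: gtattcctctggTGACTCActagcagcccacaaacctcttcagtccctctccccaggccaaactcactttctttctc
The first 6 windows and the DMD intron 1 window hold at least 1 CAGCTG, and the last 2 windows hold an AP-1 site and no E box of these letters. Every window shown holds a marked motif, so the windows do not stand for all such regions. Within 100 bp of the summit, CAGCTG lay in 10 of the 20 member regions whose height fell in MyoD-deleted libraries, against 57.1% of all regions that fell. An AP-1 site lay in 3 of the 12 whose height rose (25%), against 33% of all that rose. It lay in 1 of the 5 called in MyoD-deleted libraries only (20%), against 27.4% of all such regions. In the MYMX 5′ window, 3 E boxes lie 8 to 22 bp from the summit.

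Which member regions opened or closed with MyoD deletion was asked first by rank, the place of a region's fold enrichment among the 47885 regions called in all 6 libraries. Of the 91 member regions, 4 (4.4%) ranked lower and 4 (4.4%) ranked higher in MyoD-deleted libraries (limma, Benjamini-Hochberg adjusted p under 0.05 over all 47885 regions). Over all regions, 4.67% ranked lower and 4.12% ranked higher, so the members' shares lay near the background. Each count fell to 1 in a fit without MyoD-deleted replicate 2, those ranked higher also to 1 without vector replicate 2 and 2 without vector replicate 3, and those ranked lower to 2 and 1 without these vector libraries. Lost regions, called in 3 of 3 vector and 0 of 3 MyoD-deleted libraries, numbered 3 of 170 (1.76%, against 1.78% of all regions). Gained regions, the reverse, numbered 5 of 170 (2.94%, against 4.56%). There were 9 gained without vector replicate 1 or MyoD-deleted replicate 3, 8 without MyoD-deleted replicate 2, and 5 lost without vector replicate 2.

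A fold enrichment divides the summit by the local background, and the summit height itself was also compared. The scaled height is the number of fragments at the summit over the smallest background of the library, and the centred height is its log2 minus that of the median region of the library. By centred height 20 of the 91 member regions (22%) fell and 12 (13.2%) rose (limma, adjusted p under 0.05), against 12.8% and 11.4% of all regions. The groups did not overlap, with MyoD-deleted lower, in 30 of 91 (33%, against 18.1%) and with MyoD-deleted higher in 18 of 91 (19.8%, against 19.8%). The median change over the 91 was −0.05 on the log2 scale, against 0.04 over all regions. Without centring the medians were 0.14 and 0.23, and 12 member regions (13.2%, against 8.03%) fell while 25 (27.5%, against 24.7%) rose, so the balance of lower and higher depends on the centring. Changes are given on the centred scale unless stated.

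The 20 regions that fell were 4 at MYMK, 3 at MYMX, 4 at CDH15, 2 at CAV3, 2 at DYSF, 5 at DMD and 0 at MYOF and SGCA. The 12 that rose were 1 each at MYMK, MYMX, CAV3 and MYOF, 2 at DYSF, 3 each at DMD and SGCA and 0 at CDH15. By position, 9 of 45 regions in gene bodies fell and 6 rose, 7 of 29 downstream regions fell and 6 rose, and 4 of 17 upstream regions fell and 0 rose. Of the 47 regions nearest to the member's own 5′ end, 10 fell and 5 rose, and of the other 44, 10 fell and 7 rose. Over all regions at any position 12.8% fell and 11.4% rose. Shares over all regions were not taken by position or nearest start, so these small counts are a description only.

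**Figure D1:**
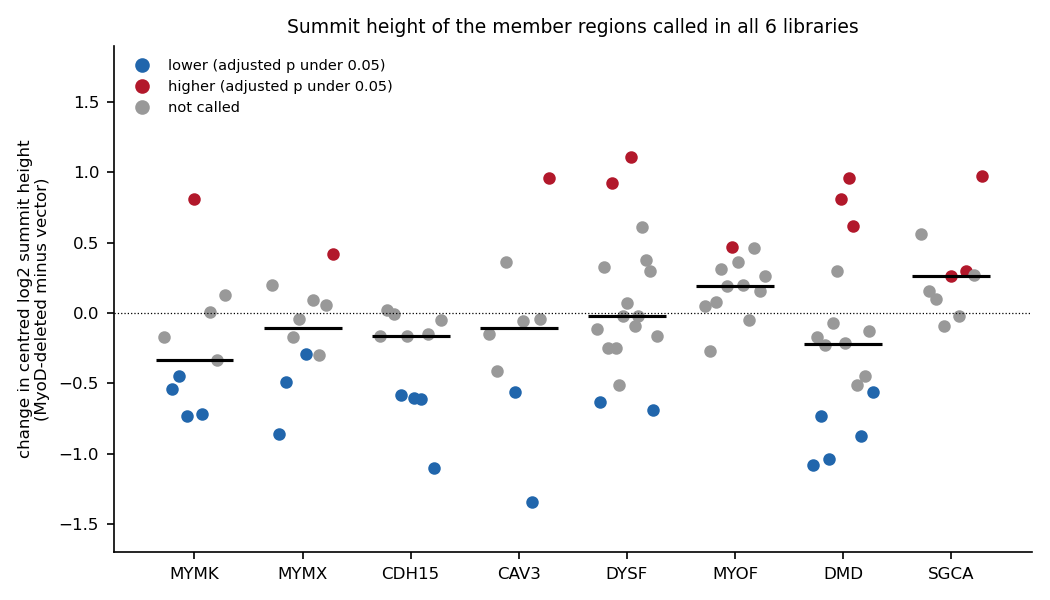
Change in centred log2 summit height (MyoD-deleted minus vector) of the 91 member regions called in all 6 libraries, by gene, each point a region in order along the gene, blue lower and red higher at adjusted p under 0.05, grey not called, bars the median of the changes. The median of the region changes is lowest at MYMK (−0.33) and DMD (−0.22) and highest at SGCA (0.26) and MYOF (0.20).

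MYMK (ENSG00000187616.5, chr9:133514586-133528612, minus strand) held 16 regions, 9 of them called in all 6 libraries. By centred height 4 fell and 1 rose, and by rank none passed the test. The open region at the upstream-most annotated start (chr9:133527234-133529328, gene on the minus strand, summit 185 bp upstream of that start) had scaled heights of 37.8, 57.5 and 56.7 in vector replicates 1 to 3 and 40.1, 44 and 40.9 in MyoD-deleted replicates 1 to 3. The MANE Select transcript, the reference transcript of the gene, starts further downstream, at 133524959. On the centred scale vector replicate 1, at 0.67, lay just above the MyoD-deleted values of 0.50 to 0.65, and vector replicates 2 and 3 stood higher at 1.19 and 1.23. The change was −0.45 ± 0.15 (SE, n = 3 per group, limma adjusted p = 0.0336), and it did not pass without centring (−0.26, adjusted p = 0.209) or when any library other than vector replicate 1 was left out (adjusted p up to 0.167). Its rank was low in every library, from the 7.81st to the 20th percentile, and did not differ (adjusted p = 0.62). The local background under this summit moved with its height, by −0.57 on the log2 scale.

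Inside MYMK, an intron 1 region (chr9:133521897-133523332) lay 2283 bp downstream of the MANE start. Its scaled heights were 63.9, 72.8 and 71.3 in vector and 38.4, 54.9 and 51.2 in MyoD-deleted libraries, with no overlap. The height was 0.602 times that of vector (−0.73 ± 0.12, adjusted p = 0.000255), and the call held in each of the 6 fits without a library and without centring (adjusted p = 0.00527). A region 36 kb downstream of the gene's 5′ end (chr9:133492027-133493257) had 78.9, 81.4 and 101 against 55.1, 54.9 and 71.2, again without overlap (−0.72 ± 0.13, adjusted p = 0.000465). Between these, at 21.9 kb, chr9:133506253-133507267 rose from 57.8, 33.3 and 32.9 to 71, 102 and 70.8 (0.81 ± 0.19, adjusted p = 0.00413). The remaining call was a fall at chr9:133534031-133535368, inside the neighbour ADAMTSL2 (−0.54 ± 0.14, adjusted p = 0.00718), which did not pass without centring (−0.35, adjusted p = 0.0845).

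MYMX (ENSG00000262179.3, chr6:44216926-44218234, plus strand), a gene of 1.31 kb, held 14 regions and 10 called in all 6 libraries. At its 5′ end (chr6:44216469-44217699, summit 125 bp upstream of the start) scaled heights were 58.1, 72.4 and 73.8 in vector and 59.5, 48.3 and 58.4 in MyoD-deleted libraries. On the centred scale the groups did not overlap, with 1.29, 1.52 and 1.61 against 1.22, 0.74 and 1.01 (−0.49 ± 0.13, adjusted p = 0.0126). The fall did not pass without centring (−0.29, adjusted p = 0.112) or without vector replicate 2, vector replicate 3 or MyoD-deleted replicate 2 (adjusted p up to 0.0859). A region 16 kb upstream, with no other coding gene over it (chr6:44200154-44201586), fell further. It had 71.6, 89.5 and 78.6 against 42.3, 40 and 73.3, so that MyoD-deleted replicate 3 reached the vector range on the uncentred scale while the other MyoD-deleted libraries lay well below (−0.86 ± 0.17, adjusted p = 0.000927). Its local background fell as well, by 0.68 on the log2 scale, and its rank did not change at the threshold (adjusted p = 0.165).

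Further from MYMX, the region at chr6:44172480-44173372 inside CAPN11, a calpain gene, ranked higher. Its percentiles were 62.5, 67.1 and 58.3 in vector and 82, 88.9 and 81.7 in MyoD-deleted libraries (inverse-normal shift 0.69 ± 0.15, adjusted p = 0.0221), while its height did not pass (0.20 ± 0.13, adjusted p = 0.307). Without vector replicate 2, vector replicate 3 or MyoD-deleted replicate 2 the rank call was lost (adjusted p of 0.0528 to 0.0799). CAPN11 also held the lost region of this locus (chr6:44176916-44177479, 40, 32 and 37 fragments in vector) and its gained region (chr6:44180867-44181585, 11, 15 and 17 fragments in MyoD-deleted libraries). Both were weak, at mean percentiles of 8.28 and 8.55 among all regions of the libraries that called them. At the start of NFKBIE, an inhibitor of NF-κB, chr6:44264974-44265847 rose (0.42 ± 0.12, adjusted p = 0.0149, and 0.0959 without MyoD-deleted replicate 1). The third fall lay in SLC29A1 (chr6:44223246-44224382, −0.29 ± 0.10, adjusted p = 0.0419, and 0.579 without centring), and it was lost without any library but vector replicate 1.

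**Figure D2:**
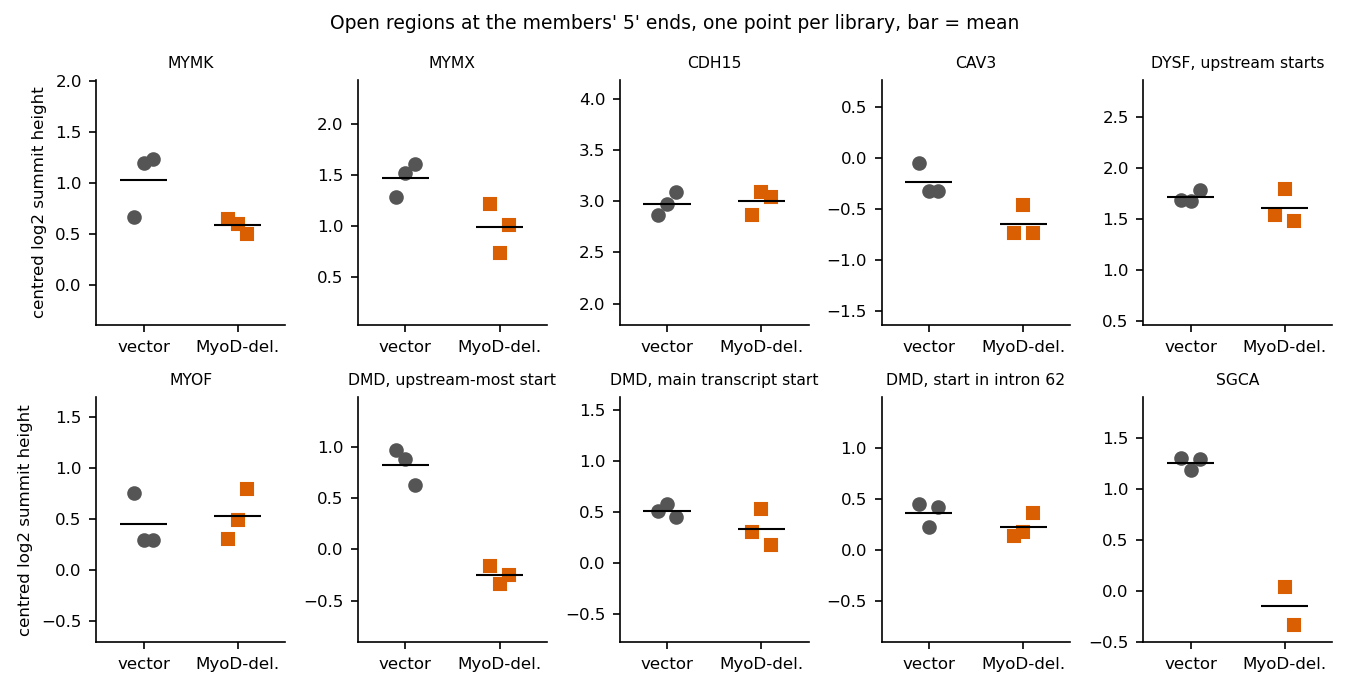
Centred log2 summit height of the open regions at the 5′ ends of the 8 genes, 1 point per library (circles vector, squares MyoD-deleted), bars the group mean, every panel spanning the same 2.4 log2 units. The groups are far apart at the upstream-most DMD start and at SGCA, where MyoD-deleted replicate 1 had no peak, and overlap at CDH15, DYSF, MYOF and the other DMD starts.

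CDH15 (ENSG00000129910.8, chr16:89171748-89195492, plus strand) held 15 regions, 10 called in all 6 libraries, and no region was gained, lost or called by rank. The 5′-end region, one of the tallest member regions, (chr16:89170898-89172052, summit 201 bp upstream of the start) had scaled heights of 174, 197 and 205 in vector and 187, 247 and 238 in MyoD-deleted libraries, with overlapping groups (0.02 ± 0.09, adjusted p = 0.908). The 4 falls lay inside the gene or downstream of it. An intron 5 region (chr16:89184104-89186659) changed by −0.58 ± 0.19 (adjusted p = 0.0298, and 0.117 without centring), a call lost without vector replicate 2 or MyoD-deleted replicate 1, whose scaled height of 18.1 was far under the 33.6 to 38.7 of the other libraries (adjusted p up to 0.187).

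Downstream of CDH15, a pair of regions in and beside SLC22A31 fell by 0.60 (chr16:89197479-89198362, adjusted p = 0.000821) and 0.61 (chr16:89199301-89202141, adjusted p = 0.00628, and 0.0638 without vector replicate 2). Their ranks stayed under the 20th percentile in every library and their local backgrounds fell by 0.57 and 0.62. The largest fall lay 58.7 kb from the 5′ end, inside ZNF778, a zinc finger gene (chr16:89229879-89230922). Its scaled heights were 68.9, 94 and 89.2 in vector and 40.6, 41.8 and 51.2 in MyoD-deleted libraries, 0.465 times the vector height (−1.10 ± 0.13, adjusted p = 9.78e-06). The local background there fell nearly as far, by 1.01, and the rank stayed at the 85.9th to 96.2nd percentile (adjusted p = 0.11). Within 100 bp of this summit lay 5 CAGCTG motifs at even spacing, starting at 89230405, 89230433, 89230461, 89230489 and 89230517. Whether they belong to a repeated sequence was not tested.

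CAV3 (ENSG00000182533.7, chr3:8733802-8841808, plus strand) held 14 regions, 8 called in all 6 libraries. Its MANE transcript ends at 8746758, and the rest of the annotated body runs through the neighbour OXTR and into RAD18. The 50 kb window downstream was counted from the end of this longer body, so the RAD18 regions below lie far beyond the MANE transcript. It was the member with the largest median rank shift, from percentiles of 57.5, 61 and 58 in vector to 41.3, 38.2 and 39.8 in MyoD-deleted libraries (−19.1 points, exact two-sided permutation test, p = 0.1, the smallest p that 3 against 3 libraries allow). Such a gene shift compares the median over the gene's regions in each library, not the changes of single regions. Single CAV3 regions shifted by −46.4 to 17.6 points. The median centred height of the same regions shifted by −0.07 (exact permutation test, p = 0.7), with overlapping groups. The 5′-end region (chr3:8733164-8735125, summit 116 bp upstream of the start and inside SSUH2, which covers the CAV3 start) had 78, 45 and 53 fragments in vector and 35, 48 and 41 in MyoD-deleted libraries, and its change of −0.41 ± 0.18 did not pass (adjusted p = 0.105).

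In CAV3 intron 1, 8.05 kb from the 5′ end and also within SSUH2, chr3:8741488-8742384 ranked lower. Percentiles were 54.8, 69.4 and 63 in vector and 33.8, 20.2 and 34.6 in MyoD-deleted libraries (inverse-normal shift −0.87 ± 0.19, adjusted p = 0.0213), and scaled heights were 50.7, 61.6 and 52.3 against 36.2, 42.2 and 49.5 (−0.56 ± 0.13, adjusted p = 0.00312, and 0.0584 without centring). The groups did not overlap on either scale. The rank call was lost without vector replicate 2, vector replicate 3 or MyoD-deleted replicate 2 (adjusted p of 0.0675 to 0.0836). No E box of the letters shown lay within 100 bp of this summit.

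The largest rank shift downwards among the 91 regions lay downstream of CAV3, 122 kb from its 5′ end inside RAD18, a DNA repair gene (chr3:8855830-8857119). It had 75, 59 and 67 fragments in vector and 21, 26 and 29 in MyoD-deleted libraries, with scaled heights of 22, 26.5 and 24.5 against 9.26, 11.4 and 12.4. Percentiles were 60.3, 57.3 and 53 against 7.24, 11.8 and 12.3, a gap far wider than the spread within either group. The inverse-normal shift was −1.44 ± 0.18 (adjusted p = 0.00329) and the height was 0.395 times that of vector (−1.34 ± 0.18, adjusted p = 4.16e-05). Both calls held in all 6 fits without a library. The sequence shown for this region has a CAGCTG 20 bp and a CACCTG 96 bp from the summit. Further on, chr3:8887795-8888868, also in RAD18, rose in scaled height from 14.1, 8.54 and 11 to 18.5, 33.8 and 23 (0.96 ± 0.23, adjusted p = 0.00521). The gained region of this locus (chr3:8840572-8840977, 19, 29 and 22 fragments) lay in the annotated body of both CAV3 and RAD18, outside the CAV3 MANE transcript.

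DYSF (ENSG00000135636.16, chr2:71453561-71686763, plus strand) held the most regions, 43, of which 17 were called in all 6 libraries. It was the member whose median percentile rose most, from 17.5, 22 and 15.4 in vector to 28.2, 37.3 and 28.6 in MyoD-deleted libraries (13 points, exact permutation test, p = 0.1, the smallest possible). The median centred height went from −0.11, −0.42 and −0.32 to −0.03, 0.06 and 0.00 (0.29, p = 0.1, exact permutation test), with no overlap between groups. The height changes of the single regions, however, had a median of −0.02. The mean height was lower in 10 of the 17 regions, against 45.2% of all regions. The region at the upstream starts (chr2:71452420-71455079) had scaled heights of 76.8, 80.5 and 82.6 against 74.5, 100 and 81, and did not differ at the threshold (−0.11 ± 0.11, adjusted p = 0.518). Of the other 3 regions within 1 kb of an internal transcript start, one, in intron 36 (chr2:71609631-71610502), had 32, 27 and 27 fragments against 24, 26 and 27 (−0.09 ± 0.20, adjusted p = 0.804), and the remaining ones, in exon 29 (chr2:71570461-71570742) and intron 30, were each called in 1 MyoD-deleted library, at 12 and 22 fragments.

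Regions in 2 DYSF introns rose in height and ranked higher. In intron 3, chr2:71482024-71482817 had 66, 42 and 53 fragments in vector and 76, 109 and 104 in MyoD-deleted libraries, scaled heights of 19.4, 18.9 and 19.4 against 33.5, 47.9 and 44.3. This was a 1.89-fold rise with tight vector values and no overlap (0.92 ± 0.15, adjusted p = 0.000258), and percentiles went from 38.4, 32.2 and 43.2 to 62.9, 72.2 and 72.9 (inverse-normal shift 0.82 ± 0.16, adjusted p = 0.0157). The rank call was lost without vector replicate 2 or MyoD-deleted replicate 2 (adjusted p of 0.0629 and 0.0596). In intron 30, chr2:71583411-71584510 rose 2.17-fold (1.11 ± 0.24, adjusted p = 0.00229), with scaled heights of 22, 9.44 and 13.9 against 30.9, 40 and 35.4. Its rank call (inverse-normal shift 1.12 ± 0.30, adjusted p = 0.0448) held only in the fit without vector replicate 1 and was lost without any other library (adjusted p of 0.0662 to 0.109). Neither region held an E box of the letters shown or an AP-1 site within 100 bp of the summit, and both held a TEAD motif (GGAATG or CATTCC).

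DYSF also had 1 lost and 2 gained regions and, among regions called in all 6 libraries, 2 falls by height. The lost region, 2954 bp into the MANE transcript in intron 1 (chr2:71469440-71469940), had 92, 75 and 96 fragments in vector libraries over a local background of 19.7 to 33.7. Gained regions lay 5.08 kb from the gene's 5′ end (chr2:71458449-71458901, 99, 116 and 123 fragments, with the AP-1 site shown) and in intron 3 (chr2:71495978-71496671, 89, 107 and 148 fragments). All 3 stood on a high local background and ranked low in the libraries that called them, at mean percentiles of 6.92, 8.19 and 5.18. Between the first gained region and the MANE start, chr2:71460385-71461265 fell (−0.63 ± 0.15, adjusted p = 0.00564, and 0.0505 without centring), and so did chr2:71713596-71714436 downstream of the gene (−0.69 ± 0.15, adjusted p = 0.00265). An intron 41 region (chr2:71637232-71638060) had no peak in MyoD-deleted replicate 2. In the limma fit over regions called in at least 2 libraries of each group its height fell (−1.11 ± 0.26, adjusted p = 0.00526), while its rank did not pass (adjusted p = 0.19).

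MYOF (ENSG00000138119.17, chr10:93306429-93482334, minus strand), the other ferlin gene, had no lost, gained or rank-called region among 17, of which 12 were called in all 6 libraries, and its regions ranked high, at median percentiles of 65.2 to 77.4 over the 6 libraries. The 5′-end region (chr10:93481897-93483251, summit 188 bp upstream of the start) had scaled heights of 40.2, 31 and 29.6 in vector and 31.8, 40.9 and 50.3 in MyoD-deleted libraries (0.08 ± 0.16, adjusted p = 0.771). Intron 1 held the single call, chr10:93458512-93459551, which rose from 88.3, 97.5 and 78.2 to 116, 159 and 145 without overlap (1.39-fold, 0.47 ± 0.11, adjusted p = 0.00293). Its rank stayed at the 92.9th to 96.2nd percentile, and its local background rose by 0.52. Of the 12 regions, 10 had a mean height above vector, and without centring 7 rose at the threshold and 0 fell. Over all regions called in all 6 libraries the mean height was lower in 45.2%. Without centring 24.7% of them rose and 8.03% fell.

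DMD (ENSG00000198947.18, chrX:31097677-33339609, minus strand), the longest gene of the set, held 33 regions and 16 called in all 6 libraries, in which 5 fell and 3 rose by height. At the upstream-most start, that of the form known from brain cortex, chrX:33338986-33339971 (summit 156 bp inside the gene, on the minus strand) had 159, 104 and 102 fragments in vector and 52, 52 and 57 in MyoD-deleted libraries. Scaled heights were 46.6, 46.8 and 37.3 against 22.9, 22.9 and 24.3, so that every MyoD-deleted library lay well under every vector library. The height was 0.472 times that of vector (−1.08 ± 0.15, adjusted p = 4.38e-05), a call that held in all 6 fits without a library and without centring (−0.89, adjusted p = 7.91e-05). The local background fell by 0.92 and the rank change missed the threshold, from percentiles of 90.4, 78.3 and 83.3 to 66.4, 65.1 and 72.7 (adjusted p = 0.0678).

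The region at the start of the MANE transcript, the muscle form (chrX:33211018-33212118), had scaled heights of 33.7, 37.8 and 32.9 in vector and 31.8, 41.8 and 32.8 in MyoD-deleted libraries. The groups overlapped and the change was −0.17 ± 0.14 (adjusted p = 0.42). The region at a short-transcript start in intron 62, that of the widely expressed form Dp71 (chrX:31266291-31267256), had 32.6, 29.2 and 32.2 against 28.2, 33 and 37.1 (−0.13 ± 0.14, adjusted p = 0.558). Close inside the muscle start, in intron 1, chrX:33204527-33205694 fell from 27.3, 35.1 and 31.8 to 18.5, 24.6 and 21.7 (−0.73 ± 0.16, adjusted p = 0.00224) and ranked lower (inverse-normal shift −0.74 ± 0.17, adjusted p = 0.025). Its rank call held only in the fit without vector replicate 1 (adjusted p of 0.056 to 0.0879 without each other library), while its height call held in all 6. This is the window shown with 2 CAGCTG motifs and an AP-1 site.

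In DMD intron 2, 468 kb from the gene's 5′ end, chrX:32871286-32872358 had 72, 39 and 50 fragments in vector and 22, 23 and 28 in MyoD-deleted libraries. The height was 0.488 times that of vector without overlap (−1.04 ± 0.19, adjusted p = 0.000748). Percentiles fell from 87.3, 57.1 and 66.7 to 29.6, 26.8 and 38.9 (inverse-normal shift −1.06 ± 0.24, adjusted p = 0.0248, and 0.0565 to 0.086 without vector replicate 3, MyoD-deleted replicate 1 or MyoD-deleted replicate 2). A lost region between the upstream-most and muscle starts (chrX:33330674-33331359) had 27, 13 and 23 fragments in vector libraries and was the highest ranked of the 3 lost member regions, at a mean percentile of 34.9.

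The distal part of DMD, between introns 56 and 64, moved both ways. Intron 60 held the largest rank shift upwards among the 91 regions. There, chrX:31352856-31353744 had 21, 21 and 23 fragments in vector and 39, 40 and 42 in MyoD-deleted libraries, and percentiles went from 12.3, 30.9 and 27.2 to 77.3, 70.8 and 68.3. The inverse-normal shift was 1.35 ± 0.20 (adjusted p = 0.00622) and the height rose 1.95-fold (0.96 ± 0.21, adjusted p = 0.00247). Both calls held in all 6 fits without a library, and the AP-1 site shown lies 61 bp from the summit. Regions in intron 61 (chrX:31332962-31333977, 0.62 ± 0.21, adjusted p = 0.0355) and intron 56 (chrX:31498909-31499844, 0.81 ± 0.19, adjusted p = 0.00356) rose too, the first only while vector replicate 2 and every MyoD-deleted library were kept. Regions in intron 62 (chrX:31279220-31279993, −0.87 ± 0.18, adjusted p = 0.00161) and intron 64 (chrX:31220651-31221826, −0.56 ± 0.16, adjusted p = 0.0173, and 0.119 without centring) fell, the latter call being lost without vector replicate 2, MyoD-deleted replicate 1 or MyoD-deleted replicate 3 (adjusted p up to 0.0868).

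**Figure D3:**
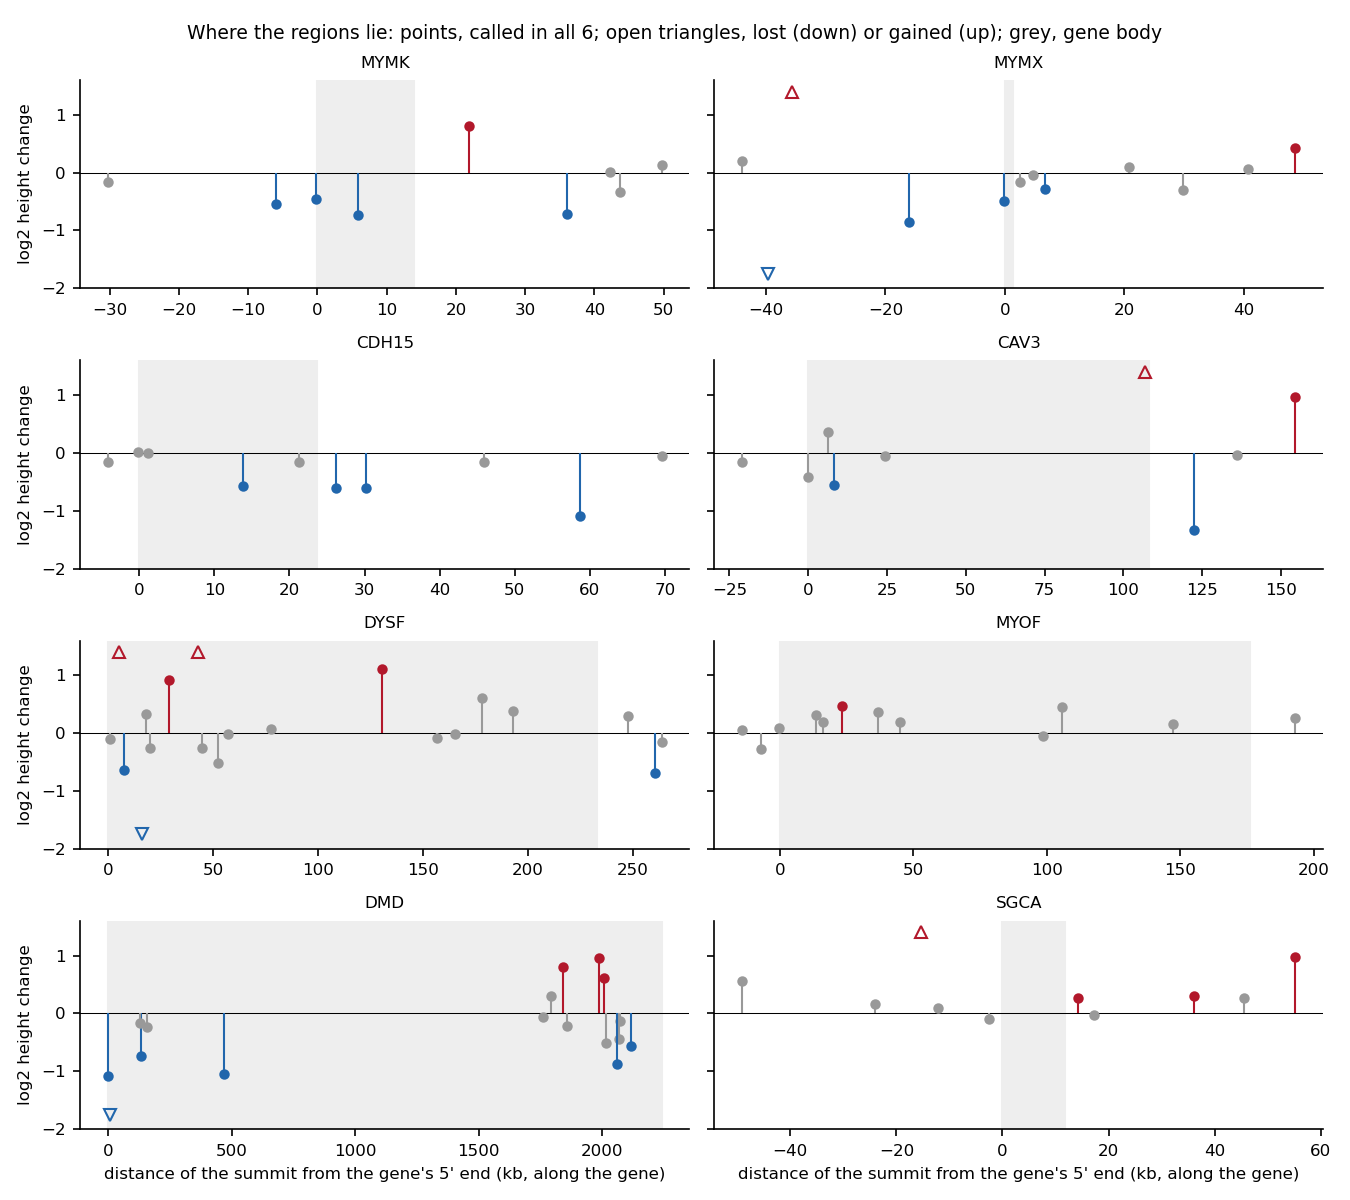
Change in centred log2 summit height against the distance of the summit from the gene's upstream-most 5′ end (kb, positive along the gene), 1 panel per gene, grey the gene body, blue lower and red higher at adjusted p under 0.05. Open triangles mark the 3 lost and 5 gained regions, which have no height change. At DMD the falls lie at the 5′ end and in introns 1, 2, 62 and 64, and the rises in introns 56, 60 and 61.

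SGCA (ENSG00000108823.17, chr17:50164214-50175928, plus strand) held 18 regions, 9 called in all 6 libraries. The region over the start of the MANE transcript (chr17:50165730-50166620, summit 107 bp inside it) had 200, 127 and 161 fragments in vector, no peak in MyoD-deleted replicate 1, and 68 and 54 in the other MyoD-deleted libraries. Scaled heights were 58.7, 57.1 and 58.9 against 29.9 and 23, and both MyoD-deleted values lay below every vector value. Because 1 library has no value, this region is not among the 91. No E box of the letters shown lay within 100 bp of its summit. In the fit over regions called in at least 2 libraries of each group, in which MyoD-deleted replicate 1 was dropped for this region, its height changed by −1.40 ± 0.15 (adjusted p = 8e-06) and its rank by −2.01 ± 0.27 inverse-normal units (adjusted p = 0.00596). A further region within 1 kb of an internal start, in intron 6 (chr17:50169424-50169705), was called only in MyoD-deleted replicates 1 and 3, at 37 and 44 fragments.

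The 3 rises at SGCA all lay downstream of the gene. That nearest to it, chr17:50178022-50178964, was the tallest member region, with scaled heights of 226, 252 and 253 in vector and 273, 389 and 351 in MyoD-deleted libraries (0.26 ± 0.09, adjusted p = 0.0474), a call lost without any of 4 libraries (vector replicates 1 and 2, MyoD-deleted replicates 2 and 3, adjusted p up to 0.259). The next lay in COL1A1, the fibrillar collagen gene (chr17:50200018-50201139, 0.30 ± 0.08, adjusted p = 0.0114, up to 0.0802 without vector replicate 2, MyoD-deleted replicate 2 or MyoD-deleted replicate 3). Furthest out, 55.2 kb from the SGCA 5′ end and nearest to COL1A1, chr17:50218473-50220382 rose from 26.7, 23.8 and 25.2 to 60.4, 57.1 and 51.6, a 1.95-fold rise with no overlap (0.97 ± 0.14, adjusted p = 9.85e-05) that held in all 6 fits without a library. The gained region of this locus, chr17:50148508-50149046 in PPP1R9B, had 99, 99 and 116 fragments over a local background of 48.9 to 55.9 and ranked at the bottom of its libraries, at a mean percentile of 0.101.

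Gene medians differed in direction by measure. Each compares the median over a gene's regions in each library, which can differ from the typical change of single regions. By rank, the MYMK median shifted by −14.8 points and that of MYMX by −10.5, both without overlap between groups (exact permutation test, p = 0.1 each). The 9 MYMK regions themselves shifted by −23.6, −15.4, −8.18, −3.74, −1.39, −0.0216, 3.93, 4.56 and 24 points. The 10 MYMX regions shifted by −17.4 to 21.6 points. The medians of CDH15 (3.05, p = 0.6), MYOF (−3.78, p = 0.4), DMD (−6.62, p = 0.3) and SGCA (−2.78, p = 0.6) had overlapping groups (exact permutation tests). By centred height the medians of MYMK, −0.44, and CDH15, −0.35, shifted without overlap (exact permutation test, p = 0.1 each). Those of MYMX (−0.15, p = 0.3), MYOF (0.08, p = 0.7), DMD (−0.03, p = 0.8) and SGCA (0.10, p = 0.9) did not separate the groups (exact permutation tests). The median of the height changes of single regions is a different quantity. It was −0.33 at MYMK, −0.16 at CDH15, −0.11 at MYMX, 0.20 at MYOF, −0.22 at DMD and 0.26 at SGCA. The mean height was lower in 12 of 16 DMD regions and 2 of 9 SGCA regions, against 45.2% of all regions.

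Height and local background moved together. Of the 20 member regions that fell in height, 19 had a lower local background in MyoD-deleted libraries, 17 had a lower rank and 4 passed the rank test. Of the 12 that rose, 12 had a higher background, 11 a higher rank and 3 passed the rank test. Over all regions the background moved the same way for 96.3% of falls and 98.5% of rises, and 32.2% of falls and 29.7% of rises passed the rank test. The correlation between the changes in height and background was 0.81 over the 91 member regions and 0.83 over all 47885, as a description, since both come from the same reads. The MYMK and upstream-most DMD starts were among those that fell in height without a rank call.

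**Figure D4:**
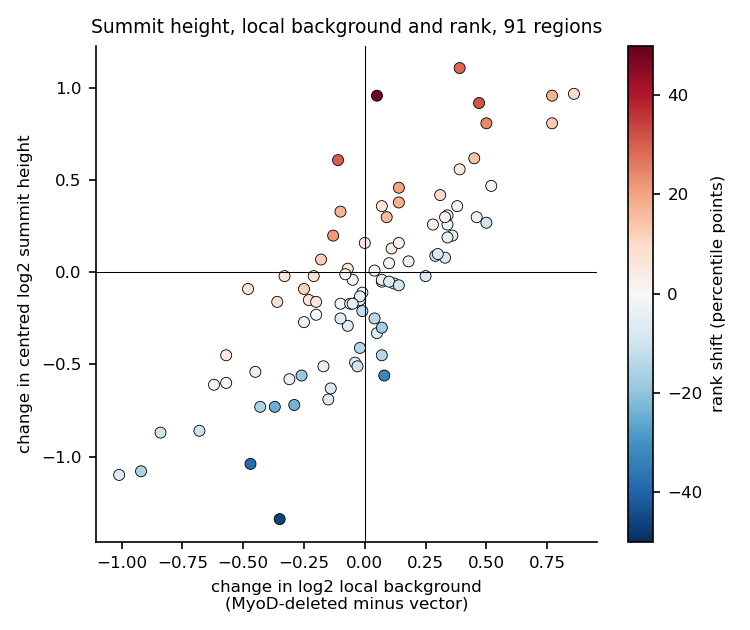
Change in centred log2 summit height against the change in log2 local background (each over the smallest background of its library) for the 91 member regions, coloured by the rank shift in percentile points. The points lie along a rising line (r = 0.81), and the strongest rank shifts belong to points far above or below it, such as the DMD intron 60 region (48.6 points) and the region in RAD18 downstream of CAV3 (−46.4 points).

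E boxes were counted on both strands in windows reaching 100 bp to either side of each summit. CAGCTG was present in 51 of 170 member regions (30%) and in 25.1% of all regions, and in 35 of the 91 called in all 6 libraries (38.5%, against 27.8%). It was present in 10 of the 20 member regions that fell in height (50%), 23 of the 59 without a height call (39%) and 2 of the 12 that rose (16.7%). The same shares over all regions were 57.1%, 24.6% and 15.9%. Member regions with CAGCTG had a median height change of −0.17 with a lower mean height in 27 of 35, and those without had 0.04, with a lower mean height in 26 of 56. Over all regions the medians were −0.13 and 0.08. A lower mean height was found in 63.2% of all regions with CAGCTG and 38.3% without, against 77.1% and 46.4% of the member regions. With CAGGTG or CACCTG counted too, an E box was present in 15 of 20 member regions that fell (75%), 29 of 59 without a call (49.2%) and 3 of 12 that rose (25%), against 72.6%, 35.4% and 21.9% of all regions. None of the 3 lost and 5 gained member regions held CAGCTG, against 54.8% of all lost and 13.2% of all gained regions.

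**Figure D5:**
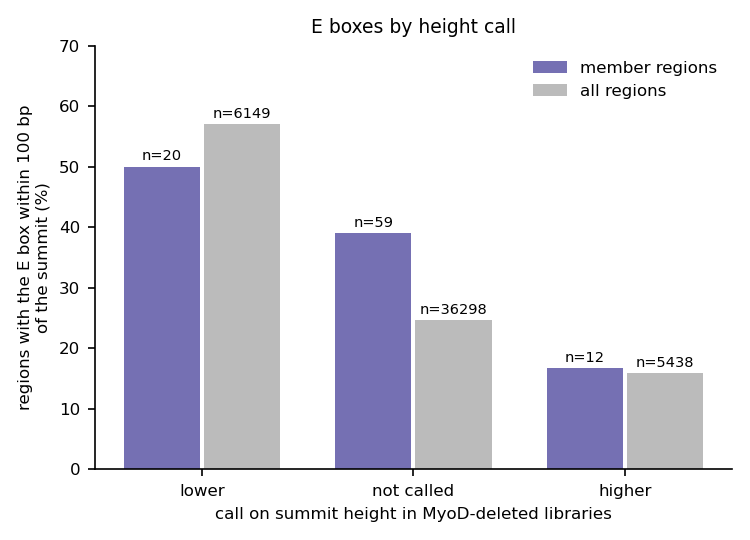
Percentage of regions with CAGCTG within 100 bp of the summit, by call on centred summit height, for member regions (purple) and all regions called in all 6 libraries (grey), with the number of regions over each bar. Among members the share is 50% in regions that fell, 39% in those not called and 16.7% in those that rose.

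Other motifs were counted in the same windows. AP-1 sites lay in 2 of the 20 member regions that fell (10%) and 3 of the 12 that rose (25%), against 14.5% and 33% over all regions. The TEAD motif lay in 2 of 20 (10%) and 4 of 12 (33.3%), against 16.6% and 24.3%. The MEF2 motif was found in 2 of 170 member regions (1.18%, against 0.607% of all regions), one of them lost.

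Other genes of the same processes were counted by the same 50 kb rule. In the fusion and adhesion list of 18 genes, 151 regions were called in all 6 libraries. Of these, 20 (13.2%) fell and 16 (10.6%) rose in height, 5 (3.31%) ranked lower and 5 (3.31%) ranked higher. DOCK1, a guanine nucleotide exchange factor of cell fusion, had 5 falls and 0 rises, with 1 region ranked lower and 2 gained. DOCK5 had 0 falls, 2 rises, 2 regions ranked higher, 2 gained and 1 lost. CDH4, R-cadherin, had 2 lost and 1 gained region, and CD9, a tetraspanin, had 2 falls and 2 rises. In the dystrophin complex list of 16 genes, 21 of 132 regions (15.9%) fell and 13 (9.85%) rose. By rank, 8 (6.06%) were lower and 7 (5.3%) higher. SGCD, δ-sarcoglycan, and SNTB1, a syntrophin, had 4 falls each and 0 rises. SGCD also had 2 lost regions, and SNTB1 1 lost and 1 gained. UTRN, the dystrophin relative utrophin, had 3 falls and 4 rises. In the caveolae and membrane repair list of 19 genes, 8 of 150 regions (5.33%) fell and 24 (16%) rose. By rank, 5 (3.33%) were lower and 4 (2.67%) higher. AHNAK, a large membrane-repair scaffold, had 0 falls and 6 rises. CAVIN1 had 1 fall, 1 rise, 1 region ranked lower and 3 gained. EHD1 had 2 falls and 2 rises, and CAV2 had 0 and 2. The median height changes of the lists were 0.03, −0.03 and 0.10 in this order, against 0.04 over all regions. Among all regions 12.8% fell, 11.4% rose, 4.67% ranked lower and 4.12% ranked higher.

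Median percentiles were compared over 4234 protein-coding genes with at least 3 regions called in all 6 libraries, in the body or 5 kb upstream. The members' median pooled the 91 regions of 8 genes from the wider 50 kb windows (46.2, 51.4, 46, 47.2, 48.1 and 45.1 over the 6 libraries). Nearest to it were HDGF and PRCC, which share their regions, at a Euclidean distance of 4.7 points, and PDXK at 4.72. The members' median pattern is flat across the libraries.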

How the data were processed

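Open chromatin was profiled by ATAC-seq in 6 RH30 libraries, 3 per group. Paired-end reads were mapped by the authors to hg38 with Rsubread, and peaks were called in each library on its own with MACS2. The submitters' processing notes also name FastQC and bcl2fastq 2.20, and other versions are not given in the sources used here. Tn5 offset correction is not given in the sources used here either. The deposited lists hold, per peak, a score (10 times the −log10 q), the fold enrichment at the summit as a ratio to local background, and the −log10 p and −log10 q. The lists carry no read counts, so the differential test on counts used by the authors was not run.

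Overlapping peaks of the 6 lists were merged on 24 chromosomes (bedtools 2.31.1, pysam 0.24.0, pandas 2.3.3 in Python 3.11.15), leaving out the 1 mitochondrial peak in each list. Regions were assigned with GENCODE 44 on GRCh38, the build of the files. The fragments at each summit and the local background were recovered from the fold enrichment, which has a pseudocount of 1, and the −log10 p. The highest fold enrichment per region was ranked within each library and transformed to normal scores, and groups were compared with limma 3.58.1 (R 4.3.3, empirical Bayes with a trend, Benjamini-Hochberg adjustment over the 47885 regions called in all 6 libraries). Summit heights were tested in the same way. Gene medians were compared by an exact two-sided permutation test over 20 assignments. p-values measure the spread between these libraries only. On simulated data for the rank comparison, 200 of 47885 regions were shifted. At 1.5 normal units 128 of the 200 were recovered (64%), with 4 other calls, and at 1.0 or 0.5 units 0 of 200. In the data 1973 regions ranked higher and 2234 lower, so the adjusted threshold was less strict than in the simulation. Member regions passed there at shifts of 0.69 or more in size. The simulated shares therefore do not give the recovery in these data, where small rank shifts can still be missed.

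The members, gene lists and rules were chosen with earlier results of these data known. Named regions were those within 1 kb of a member's transcript start (at most 3 per gene), up to 3 ranked lower and 3 ranked higher, and up to 2 lost and 2 gained. Regions called by summit height were named in addition, after their values were seen. Alternatives varied the peak threshold and number, overlap, libraries, replicate block, measure, regions fitted and gene window. The genes with the most called regions were named from each pathway list, and 1 of them is not reported here.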

Additional observations from a re-analysis of the deposited data

How the results depend on the processing

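Counts over the 91 or 170 member regions moved with several choices, and the cause was not tested. Leaving out 1 library gave 1 to 5 member regions ranked higher, 1 to 4 ranked lower, 5 to 9 gained and 3 to 5 lost, and over all regions 622 to 2455 ranked higher, 831 to 1906 ranked lower, 5285 to 8501 gained and 2211 to 2789 lost. Member regions that rose in height numbered 9 to 17 and those that fell 14 to 22. With an equal number of peaks per library, 3 member regions were gained and 6 lost (2840 and 3231 of all regions). When peaks had to cover at least 50% of a region, 2 member regions ranked higher, 2 ranked lower and 5 were lost, and of all regions 1152 ranked higher and 1212 lower. Ranking by −log10 p gave 11 higher and 15 lower members (4324 and 5216 of all regions), summit height 12 and 20 (5438 and 6149), and height without centring 25 and 12 (11821 and 3843). Within the gene body and 5 kb upstream 3 were gained, 6 rose and 11 fell in height, and within the body and 10 kb on each side 3 were gained. Among regions nearest to the member's own 5′ end 2 ranked higher, 2 ranked lower, 2 were gained, 5 rose and 10 fell in height.

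Some median shifts changed sign, all of them small or with overlapping groups except MYMX and CAV3, which moved to 0.0468 and 0.123 log2 units by height without centring. CDH15 ranged from −0.541 to 4.65 points with 1 library left out, and was −2.51 by −log10 p, −0.351 by height, −0.159 without centring, and −0.892, −2.82 and −2.23 points in the 5 kb, 10 kb and own-start windows. MYOF ranged from −6.0 to 0.149, and was 0.0823 by height, 0.274 without centring and 1.53 in the 5 kb window. DMD was 0.158 by height without centring and 0.234 points over regions called in at least 2 libraries of each group. SGCA ranged from −4.93 to 0.388, and was 0.0997 by height, 0.292 without centring, 0.874 over regions called in at least 2 libraries of each group, 11.5 in the 5 kb window and 7.82 in the 10 kb and own-start windows. Height changes that were not called reversed at the CDH15 5′ end (−0.03 to 0.08, with −0.03 without vector replicate 1 and −0.02 without MyoD-deleted replicate 2), the MYOF 5′ end (−0.05 to 0.24, lowest without MyoD-deleted replicate 3), and without centring at the DYSF upstream starts (0.08), DYSF intron 36 (0.10), and the DMD starts in intron 62 (0.06) and of the muscle form (0.02). The share of member regions with an E box was 44.7% for 3 motifs, 71.2% for any CANNTG and 15.3% for CAGCTG within 50 bp.

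With the replicate number as a block, 4 member regions ranked higher and 4 lower (1361 and 1510 of all regions), and 12 rose and 19 fell in height. The MYMX region in SLC29A1 was the named region whose height call was lost (−0.29, adjusted p = 0.0539). Libraries of the same number did not deviate together (r = −0.04, −0.10 and 0.04 for numbers 1 to 3), and none of the 3 pairs was over the threshold for pairing. Depth limits what peak lists show, since a region without a peak may lie under the calling threshold of that library.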
